A study of Mus musculus with 16 samples.

Results

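The C-type lectin receptors described here are 9 genes of chromosome 6: *Clec4e*, *Clec4d*, *Clec4n*, *Clec7a*, *Clec5a*, *Clec4a1*, *Clec4a2*, *Clec4a3* and *Clec12a*. They were taken by symbol from the 55487 genes of the count table, with earlier results of these data known. All 9 passed the filter on low counts and were among the 12372 genes tested. The RNA came from bone marrow-derived macrophages (BMDMs) of wild-type Balb/c mice aged 8 weeks, and all 6 groups share that background. The macrophages received the medium without tumor factors (DMEM, n = 2), DMEM with ruxolitinib (DMEM + Rux, n = 3), or conditioned media of 4T1 cells (CM, n = 3). The other groups received CM with 0.5 µM ruxolitinib, in 2 samples labelled 2 h and 3 labelled 4 h, or CM with 0.5 µM ruxolitinib and 0.8 µM IKK-16 (CM + Rux + IKK-16, n = 3). CM + Rux without a time stands for the 4 h group. The labels of the other groups give no time, and the study's methods name 4 h for RNA. The labels give no dose of ruxolitinib for the DMEM group, and what the 2 h refers to is not given in the sources used here, so the 2 h samples are compared on their own. 4T1 is a mouse mammary tumor cell line. Ruxolitinib is an inhibitor of JAK1 and JAK2, the kinases upstream of STAT proteins, and IKK-16 one of the IKK kinases upstream of NF-κB. Nothing in the labels says that replicates came from separate animals or cultures, so p-values measure the spread between these samples, which may be technical.

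C-type lectin receptors are surface proteins with which myeloid cells bind sugars and glycolipids of microbes and products of damaged cells. Mincle (*Clec4e*), MCL (*Clec4d*) and dectin-2 (*Clec4n*) signal through the adaptor FcRγ (*Fcer1g*), dectin-1 (*Clec7a*) carries its own activating motif, and MDL-1 (*Clec5a*) uses the adaptors DAP12 (*Tyrobp*) and DAP10 (*Hcst*). These activating receptors recruit the kinase Syk, which acts through Card9, Bcl10 and Malt1 on NF-κB. DCIR (*Clec4a2*) and MICL (*Clec12a*) carry inhibitory motifs that recruit phosphatases, and *Clec4a1* and *Clec4a3* encode relatives of DCIR.

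Of the 9 genes, 6 lie in 1 cluster of lectin genes on chromosome 6 (GRCm38), which runs over 368 kb from the start of *Clec4a1* (122921848-122934619, plus strand) to that of *Clec4e* (123281789-123289870, minus strand). Between them lie *Clec4a3* (122952515-122969875), *Clec4a2* (123106428-123143999), *Clec4n* (123229843-123247021) and *Clec4d* (123262111-123275265), all on the plus strand. The other members are further away: *Clec5a* (40574894-40585821, minus strand), *Clec12a* (129342691-129365303, plus strand) and *Clec7a* (129461591-129472779, minus strand). No gene with counts overlapped any of the 9, on either strand. Because the family is made of related copies, annotated transcripts were searched for stretches of 100 bases that also occur in another gene. There were 0 in 8 of the members, and *Clec4a2* shared 64 of its 2990 such stretches (2.14%) with *Clec4a4*.

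A promoter window of 250 bases before to 50 bases after the annotated start was found for 8 of the members in RefSeq (GRCm38.p6), and none for *Clec4n*. The annotated starts behind the windows of *Clec4a2* and *Clec12a* lie 16262 and 7553 bases from the gene start in the files, so these windows belong to another start of the gene. The windows of 4 genes whose transcripts differed between CM and DMEM are shown, 2 that were higher and 2 that were lower, so that a reader can see the sequence beside the change. Capitals mark GAGGAA or its complement TTCCTC, a core of PU.1 sites, and TTGCNNAA, a core of C/EBP sites, both searched on both strands. They lie at chr6:123289822-123290121 (minus) for *Clec4e*, chr6:123261857-123262156 (plus) for *Clec4d*, chr6:40585756-40586055 (minus) for *Clec5a* and chr6:122952265-122952564 (plus) for *Clec4a3*, each printed 5′ to 3′ along the gene.
Clec4e: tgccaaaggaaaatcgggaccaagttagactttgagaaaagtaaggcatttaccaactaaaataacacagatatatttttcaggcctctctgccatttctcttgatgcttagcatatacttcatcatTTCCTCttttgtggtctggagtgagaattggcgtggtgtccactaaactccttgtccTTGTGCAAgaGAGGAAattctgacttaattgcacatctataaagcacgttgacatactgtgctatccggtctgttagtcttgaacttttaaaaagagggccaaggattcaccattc
Clec4d: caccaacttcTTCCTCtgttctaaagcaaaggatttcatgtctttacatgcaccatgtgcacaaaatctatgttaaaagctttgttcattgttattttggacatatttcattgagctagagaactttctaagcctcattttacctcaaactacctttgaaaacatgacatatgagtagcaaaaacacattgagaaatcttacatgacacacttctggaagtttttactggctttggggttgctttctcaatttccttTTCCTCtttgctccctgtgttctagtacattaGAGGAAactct
Clec5a: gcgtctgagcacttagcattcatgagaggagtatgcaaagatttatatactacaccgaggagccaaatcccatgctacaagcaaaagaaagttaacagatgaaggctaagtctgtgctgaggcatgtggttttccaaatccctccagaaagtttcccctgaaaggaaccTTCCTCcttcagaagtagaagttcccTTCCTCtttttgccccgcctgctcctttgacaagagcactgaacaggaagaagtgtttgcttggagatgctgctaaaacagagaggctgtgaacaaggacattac
Clec4a3: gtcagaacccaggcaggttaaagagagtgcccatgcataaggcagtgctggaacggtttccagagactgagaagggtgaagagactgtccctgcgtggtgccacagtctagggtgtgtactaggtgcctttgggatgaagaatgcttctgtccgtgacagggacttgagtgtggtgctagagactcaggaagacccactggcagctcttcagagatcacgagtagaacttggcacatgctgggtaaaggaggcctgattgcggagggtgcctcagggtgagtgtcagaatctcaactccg
The letters GAGGAA were found in 6 of the 8 windows, against 28.3% of all 32851 windows of the table. *Clec4e* held 2 matches, at positions -123 to -118 and -56 to -51 counted from the annotated first base as 0, and a TTGCNNAA match between them at -66 to -59. *Clec4d* held 3 GAGGAA matches and *Clec5a* 2, whereas the *Clec4a3* window held neither motif. TTGCNNAA was found in 2 windows (*Clec4e* and *Clec12a*), against 10.8% of all windows. The STAT core TTCNNNGAA was found in 1 window (*Clec4a2*; 8.3% of all), the interferon-stimulated response element in 1 (*Clec4d*; 3.44%) and the AP-1 core TGANTCA in 2 (*Clec4a2* and *Clec12a*; 7.81%). The NF-κB consensus was in 0 of the 8 windows, against 8.46% of all. The interferon-stimulated response element of *Clec4d* begins at position 0 and overlaps one of its GAGGAA matches. These matches are a description of letters in these windows, not of binding.

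Counts per sample summed to between 18449388 and 46215853. Values are CPM, counts scaled to an equal total over the genes tested, with library totals adjusted by relative log expression (RLE). Relative to totals alone, this scaling moves the median of all genes by 0.31 on the log2 scale where CM is compared with DMEM, and by 0.30 where both carry ruxolitinib. A gene was called where the adjusted p-value of edgeR's quasi-likelihood test (Benjamini-Hochberg over all tested genes) was under 0.05 and the log2 fold change was beyond 0.5. All 10 macrophage markers were tested, and summed to between 40800 and 57980 CPM over the 16 samples. *Lyz2*, at 28500 to 38000 CPM, made up a large part of this sum. *Cd14* (1410 to 15900 CPM), *Fcgr1* (32.6 to 232) and *Mertk* (4.58 to 32) ranged widely, and *Csf1r* (2250 to 3600) and *Cd68* (1310 to 2020) less so. The markers of other cell types summed to at most 10.2 CPM for neutrophils (11 markers, 2 tested, *Ly6g* and *Retnlg* at 0 in every sample), 18.9 for dendritic cells (7 markers, 3 tested), 13.1 for T and NK cells (7 markers, 1 tested, *Cd3g*, *Cd8a* and *Ncr1* at 0), 1.23 for B cells (5 markers, 1 tested, *Pax5* at 0), 1.45 for epithelial cells (7 markers, 0 tested, *Krt5* and *Krt14* at 0) and 20.9 for fibroblasts (6 markers, 4 tested). The neutrophil sum was 9.33 to 10.2 CPM in CM and 2.42 to 3.60 in DMEM. The dendritic cell sum was 5.79 to 8.02 CPM in CM, 2.05 to 2.93 in DMEM, 15.3 to 18.9 in the 2 h group and 7.84 to 11.7 in the 4 h group. The epithelial sum was 0.774 to 1.45 CPM in CM and 0 to 0.118 in DMEM, and the B cell sum 0.122 to 0.267 in CM and 1.15 to 1.21 in DMEM. The part of these markers in the results was not tested. In bulk RNA, fewer cells of a type and less RNA per cell cannot be told apart.

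Levels of the 9 genes are compared with each other per kilobase of annotated exon. In DMEM, *Clec4d* had the highest level of the set (397 ± 70.6 CPM per kb, SD, n = 2), which placed it 62nd of the 12372 tested genes. *Clec4a1* (130 ± 22.6), *Clec7a* (115 ± 11.2) and *Clec12a* (102 ± 12.3) followed, and *Clec4e* (67.3 ± 42.4), *Clec4n* (65.4 ± 1.56) and *Clec4a3* (58.2 ± 11.2) lay lower. *Clec5a* (30.5 ± 7.30) and *Clec4a2* (24.8 ± 7.47) were the lowest. In CM the order changed at the top: *Clec4d* (888 ± 32.99, n = 3, 32nd of all tested genes) was followed by *Clec4e* (535 ± 28.3, 71st) and *Clec4n* (201 ± 32.97, 221st), ahead of *Clec7a* (127 ± 10.4). In CM + Rux, *Clec4e* was at 796 ± 37.4 CPM per kb and ranked 38th, close below *Clec4d* at 949 ± 34.0, and *Clec4n* was at 83.1 ± 18.8.

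**Figure D1:**
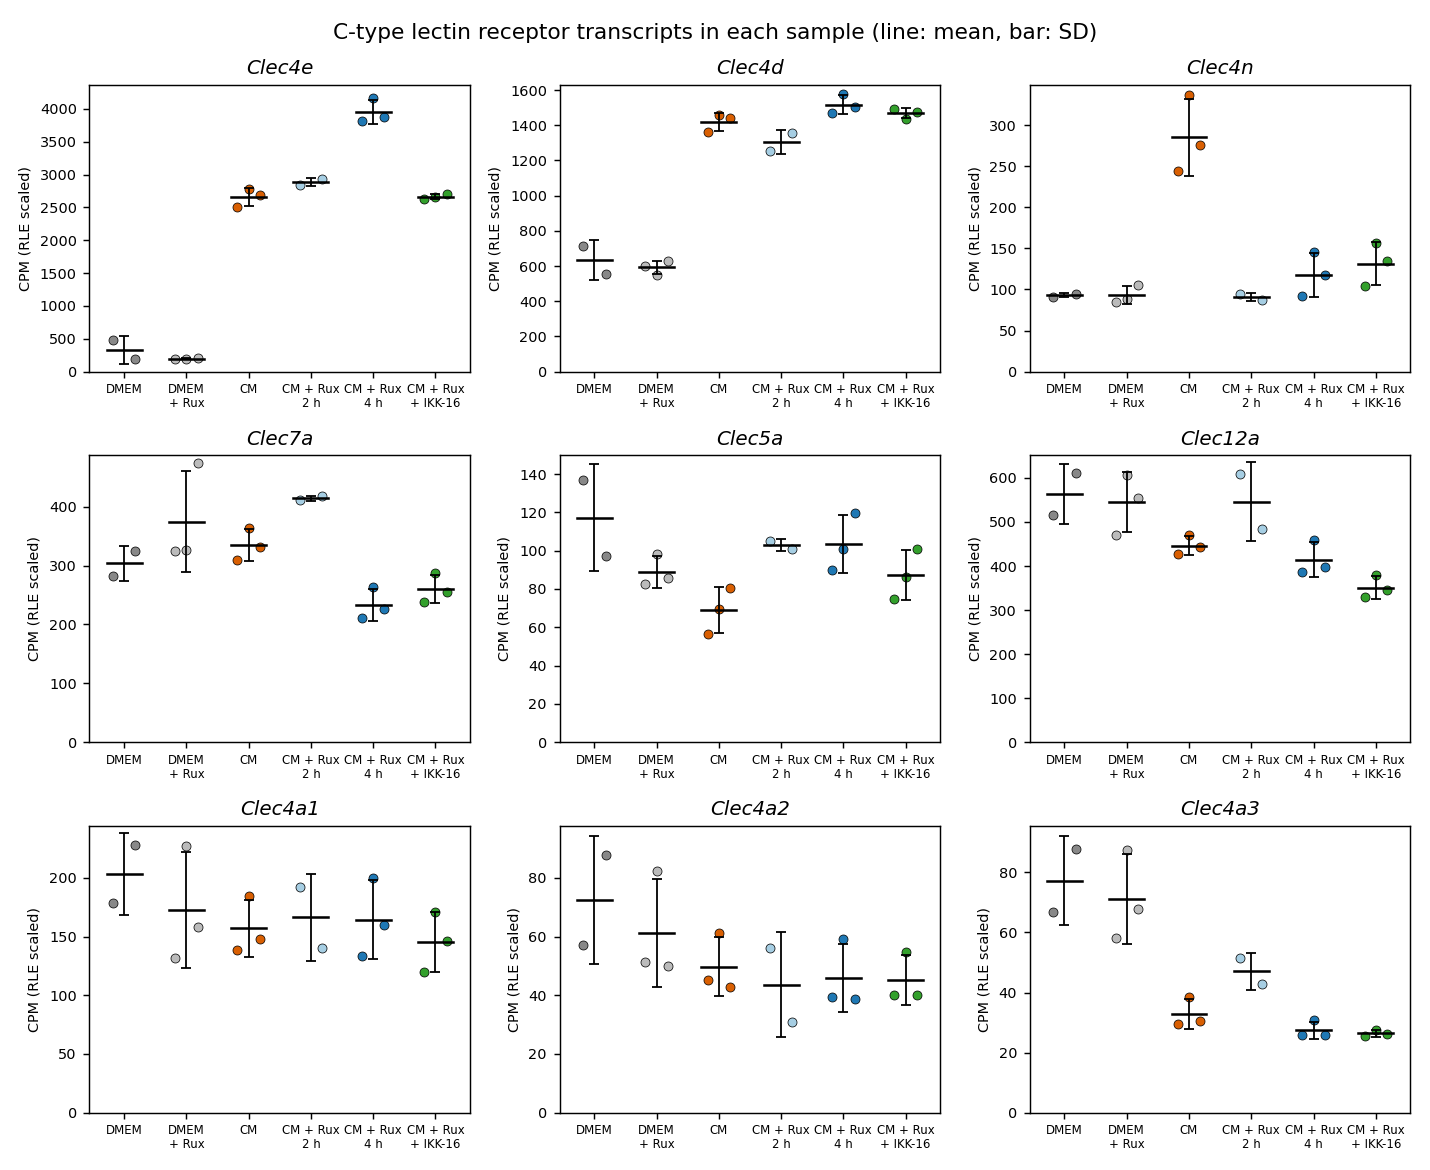
RLE-scaled CPM of the 9 receptors in each sample, with 1 panel per gene, groups on the x axis, a line for the group mean and a bar for the SD. *Clec4e* and *Clec4d* are high in all 4 groups with CM, *Clec4n* is above 240 CPM only in the 3 CM samples without inhibitor, and *Clec4a3* is below 52 CPM in every sample with CM.

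The first comparison sets CM against DMEM. CM was collected from serum-starved 4T1 cells, so factors released by the cells and other differences between the media cannot be told apart. In CM, *Clec4e*, *Clec4d* and *Clec4n* were higher than in DMEM, and *Clec5a* and *Clec4a3* were lower. Thus 3 of the 9 genes were called higher and 2 lower, against a background of 20.9% of all tested genes called higher and 24.1% called lower (45% in either direction), and the median log2 fold change was -0.34 over the 9 genes and -0.005 over all genes. *Clec4e* measured 483 and 185 CPM in the 2 DMEM samples and 2503, 2780 and 2681 CPM in the 3 CM samples. The groups did not overlap, and the DMEM samples differed from each other more than the CM samples did. The increase was 7.94-fold (log2 2.99 ± 0.28 SE, edgeR adjusted p = 8.75e-07), with a log2 value of 2.46 without DMEM replicate 2 and 3.84 without DMEM replicate 1. *Clec4d*, whose protein pairs with Mincle, was at 715 and 555 CPM in DMEM and at 1360, 1459 and 1440 in CM. It was 2.23-fold higher (log2 1.16 ± 0.10, edgeR adjusted p = 5.46e-07). *Clec4n* was at 91.3 and 94.5 CPM in DMEM and at 244, 336 and 276 in CM. The DMEM samples were nearly equal and all CM samples lay above them, a 3.07-fold difference (log2 1.62 ± 0.20, edgeR adjusted p = 1.1e-05).

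*Clec4a3* was at 66.7 and 87.8 CPM in DMEM and at 29.6, 38.4 and 30.4 in CM, without overlap. This was the largest decrease of the 9 (log2 -1.23 ± 0.17, edgeR adjusted p = 2.42e-05). *Clec5a* was at 137 and 97.4 CPM in DMEM and at 56.6, 69.6 and 80.7 in CM (log2 -0.77 ± 0.17, edgeR adjusted p = 0.00156). Without DMEM replicate 1, the higher of the DMEM samples, the *Clec5a* difference was -0.50 and was no longer called. *Clec12a* ranged from 426 to 470 CPM in CM and from 516 to 612 in DMEM, which did not overlap, but its log2 difference of -0.34 ± 0.13 did not reach the fold threshold (edgeR adjusted p = 0.0335). *Clec4a1* (-0.37, 95% interval -0.87 to 0.13), *Clec4a2* (-0.54, -1.18 to 0.10) and *Clec7a* (0.14, -0.19 to 0.47) did not pass the test, and their groups overlapped. Without the filter on low counts *Clec4a2* was called lower (-0.53, edgeR adjusted p = 0.0275). With scaling by total counts alone, 5 members were called lower, *Clec4a1* (-0.69), *Clec4a2* (-0.85) and *Clec12a* (-0.65) in addition, and *Clec7a* was at -0.17.

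Along the cluster, the 3 genes called higher were next to each other at one end. From *Clec4a1* to *Clec4e* the annotation lists 13 genes, of which 8 were tested. *Clec4a1*, *Clec4a3*, *Clec4a4*, *Clec4b1* and *Clec4a2*, in this order, all had negative log2 differences, of which *Clec4a3*, *Clec4a4* (-1.25, from 1.18 to 0.465 CPM) and *Clec4b1* (-2.28, from 5.45 to 1.07 CPM) were called. *Clec4n*, *Clec4d* and *Clec4e* follow after a stretch of untested genes. *Clec4a4* and *Clec4b1* were near the filter on low counts. *Clec4a4*, with group means of 0.412 to 0.506 CPM in the groups with CM, passed it through the groups without CM. Its call was therefore largely set by the filter and gives no support to an order along the cluster.

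**Figure D2:**
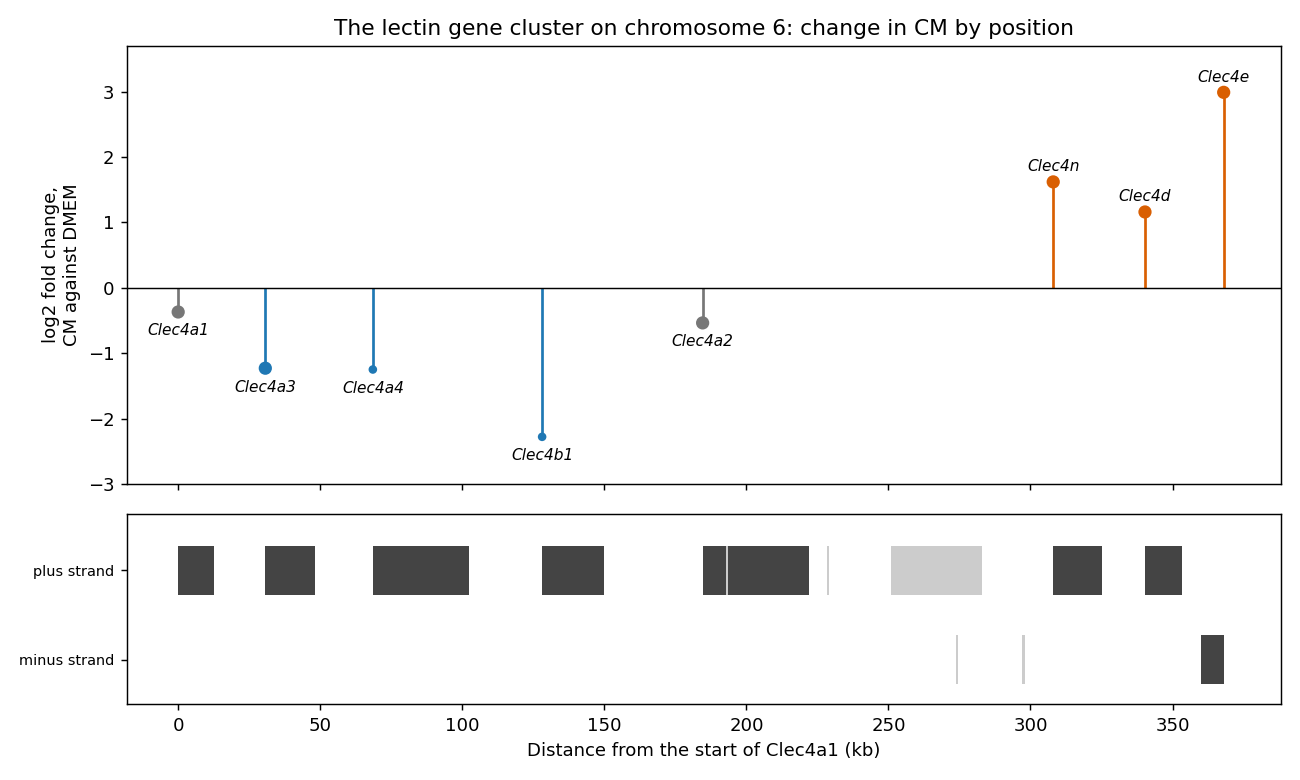
Log2 fold change of CM against DMEM for the 8 tested genes of the cluster (upper panel) against the distance of their start from that of *Clec4a1* in kb, with orange called higher, blue called lower, grey not called, and large points for the receptors of the set. The lower panel shows the genes on each strand (dark tested, light not tested), and *Clec4n*, *Clec4d* and *Clec4e* stand together at the right end, above 0.

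**Figure D3:**
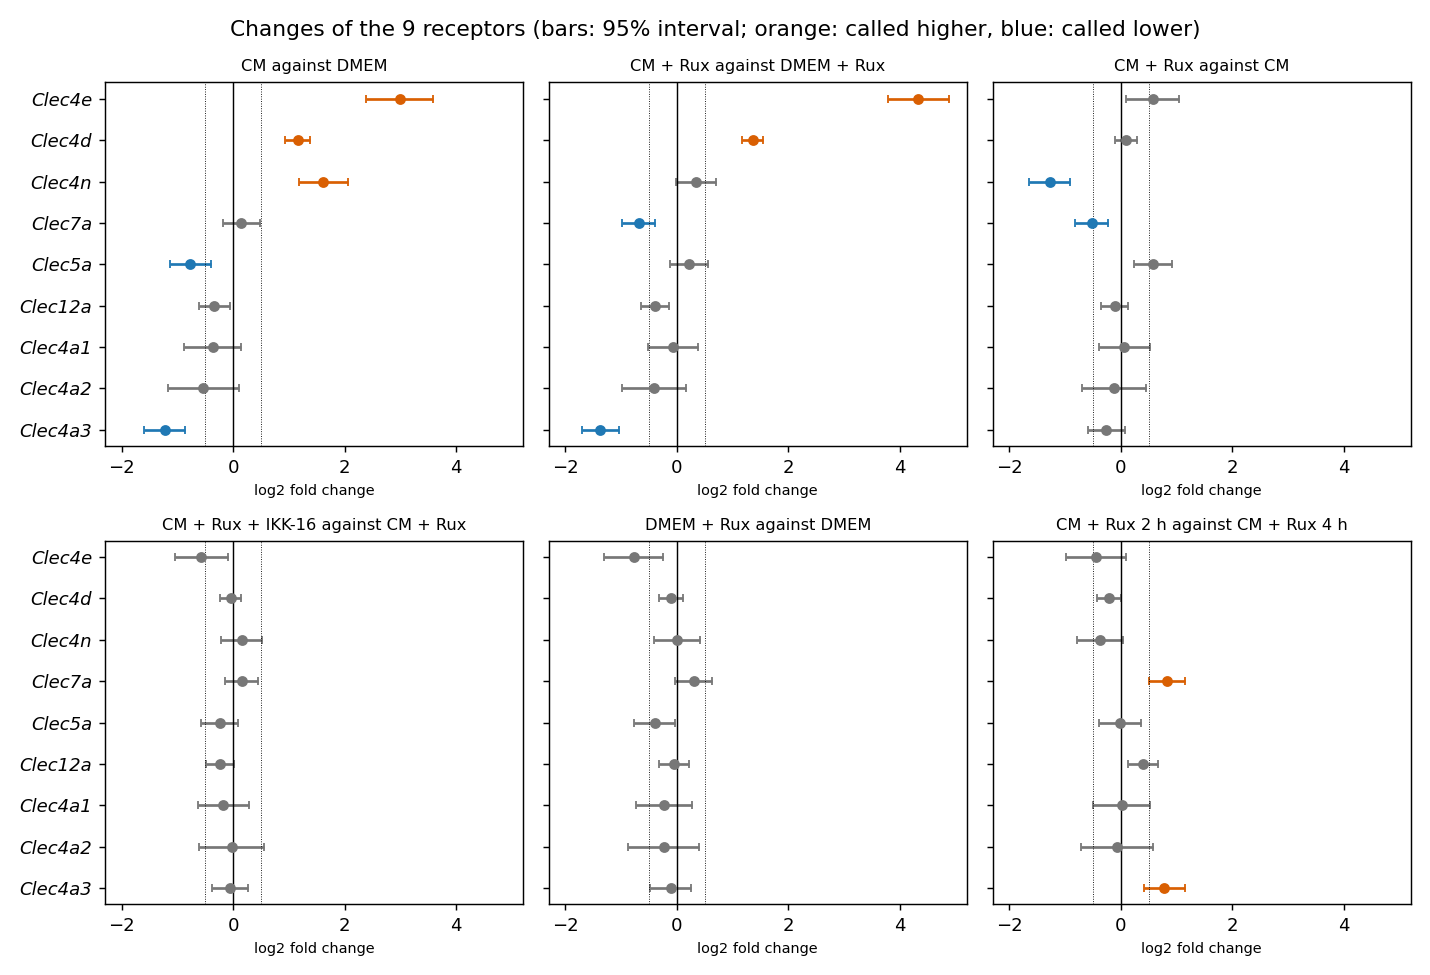
Log2 fold changes of the 9 receptors in 6 comparisons, with bars for the 95% interval, dotted lines at the fold threshold of 0.5, orange for called higher and blue for called lower. *Clec4e* and *Clec4d* are to the right of the threshold in both comparisons of CM with DMEM, while *Clec4n* is there without ruxolitinib only.

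The next comparison sets CM + Rux against CM, with 1 dose of 1 inhibitor. Dependence of the CM changes on JAK kinases was not tested. *Clec4n* and *Clec7a* were lower in CM + Rux than in CM, so 2 of the 9 were called lower (2.13% of all tested genes) and 0 higher (1.20%; 3.33% in either direction). At an unadjusted p-value under 0.05, edgeR had 2 members higher and 2 lower, and DESeq2 called 1 higher and 2 lower. Of all 12372 tested genes, edgeR had 367 higher and 477 lower in this way, and DESeq2 called 212 higher and 334 lower. *Clec4n* was at 91.6, 145 and 118 CPM in CM + Rux against 244 to 336 in CM, a log2 difference of -1.27 ± 0.17 (edgeR adjusted p = 0.000634). All 3 samples lay below every CM sample, and they ranged from the DMEM level upwards. *Clec7a* was not called in CM against DMEM. It was at 211, 264 and 226 CPM in CM + Rux and at 310, 365 and 332 in CM (log2 -0.52 ± 0.14, edgeR adjusted p = 0.0463). This call was lost when any CM sample, or CM + Rux replicate 1 or 3, was left out, with adjusted p-values of edgeR of 0.0663 to 0.199.

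*Clec4e* was at 3817, 4162 and 3871 CPM in CM + Rux, above all 3 CM samples, yet the log2 difference of 0.57 ± 0.22 did not pass the test (edgeR adjusted p = 0.203). *Clec5a* was at 90.0, 101 and 119 CPM, again above all CM samples, with a log2 difference of 0.58 ± 0.16 (edgeR adjusted p = 0.0511). With the replicate number as a block, *Clec5a* was called higher (log2 0.58, edgeR adjusted p = 0.012), and the genes called over the whole table went from 412 to 745. *Clec4d* did not pass the test (log2 0.10, 95% interval -0.10 to 0.29), although its CM + Rux samples lay above those of CM. *Clec4a1*, *Clec4a2*, *Clec4a3* and *Clec12a* overlapped between the groups, with log2 differences of -0.26 to 0.07.

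In DMEM, ruxolitinib gave 0 called members, and 0.97% of all genes were called. At an unadjusted p-value under 0.05, edgeR had 2 members lower, *Clec4e* and *Clec5a*, and DESeq2 called 0. Of all 12372 tested genes, edgeR had 50 higher and 246 lower in this way, and DESeq2 called 0 higher and 147 lower. *Clec4e* was at 199, 187 and 201 CPM in DMEM + Rux. These values are close to the second DMEM sample and below the first, and the log2 difference of -0.77 ± 0.25 did not pass the test (edgeR adjusted p = 0.395). It rests on the first DMEM sample: it was 0.08 without that sample and -1.3, called lower, without the second. *Clec7a* was at 324, 326 and 474 CPM in DMEM + Rux, with 1 sample high, and at 283 and 325 in DMEM.

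Whether the difference with ruxolitinib was itself different in CM and in DMEM was tested as an interaction. No dose is labelled for DMEM + Rux, so medium and dose cannot be told apart here. The interaction called 0 of the 9 members and 0.412% of all genes (0.234% with a positive and 0.178% with a negative value). At an unadjusted p-value under 0.05 there were 4 members, and of all 12372 tested genes 433 with a positive and 309 with a negative value. *Clec4n* (-1.28 ± 0.26, edgeR adjusted p = 0.0502) and *Clec7a* (-0.82 ± 0.21, edgeR adjusted p = 0.108) had negative values, and *Clec4e* (1.35 ± 0.33, edgeR adjusted p = 0.0992) and *Clec5a* (0.98 ± 0.23, edgeR adjusted p = 0.0876) positive ones. With the replicate block all 4 were called by edgeR: *Clec4n* at -1.25 (adjusted p = 0.00143), *Clec7a* at -0.78 (0.0176), *Clec4e* at 1.3 (0.0356) and *Clec5a* at 1.06 (0.00979). The block raised the genes called in the whole table from 51 to 444, and DESeq2 without it called the same 4 members and 234 genes. With each sample left out, the *Clec4e* value ranged widely, from 0.495 to 1.87, as its difference in DMEM rests on the first DMEM sample. The ranges were -1.45 to -1.12 for *Clec4n*, -0.929 to -0.622 for *Clec7a* and 0.714 to 1.2 for *Clec5a*.

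CM + Rux and DMEM + Rux were also compared directly, which shares samples with the comparisons above. *Clec4e* was 20.2-fold higher (log2 4.33 ± 0.25, edgeR adjusted p = 6.41e-09) and *Clec4d* 2.56-fold higher (log2 1.36 ± 0.09, edgeR adjusted p = 2.05e-08). *Clec4d* was at 600, 551 and 626 CPM in DMEM + Rux and at 1469, 1576 and 1505 in CM + Rux. *Clec4a3* was lower again (log2 -1.38 ± 0.15, edgeR adjusted p = 2.91e-06), with 58.0, 87.5 and 67.9 CPM in DMEM + Rux and 25.8, 30.7 and 25.8 in CM + Rux. *Clec7a* was lower too (log2 -0.68 ± 0.14, edgeR adjusted p = 0.000572), but without DMEM + Rux replicate 3, the high sample, the difference was -0.48 and not called. *Clec4n* was at 85.2, 88.8 and 105 CPM in DMEM + Rux and overlapped with CM + Rux (log2 0.34, 95% interval -0.02 to 0.71). *Clec5a* also overlapped, at 0.22 (-0.12 to 0.55). In all, 2 members were called higher (22.3% of all genes) and 2 lower (25%), against 47.3% of all genes in either direction.

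Addition of IKK-16 to CM + Rux asks what remains when the IKK kinases are inhibited as well. None of the 9 members was called, against 7.74% of all tested genes (4.07% higher and 3.66% lower). At an unadjusted p-value under 0.05, edgeR had 1 member lower, *Clec4e*, and DESeq2 called 0. Of all 12372 tested genes, edgeR had 753 higher and 627 lower in this way, and DESeq2 called 573 higher and 501 lower. *Clec4e* was at 2631, 2654 and 2705 CPM with IKK-16. All 3 samples lay below the CM + Rux samples and within the range of CM without inhibitors, and the log2 difference was -0.57 ± 0.22 (edgeR adjusted p = 0.106). In a model of these 2 groups alone it was called, at -0.56 (edgeR adjusted p = 0.00792). *Clec4d* was at 1492, 1435 and 1478 CPM, with an interval of -0.24 to 0.14 around -0.05. *Clec4n* stayed low, at 104, 156 and 135 CPM. *Clec12a* was at 329 to 379 CPM with IKK-16 and at 386 to 459 in CM + Rux, without overlap, and its log2 difference of -0.24 ± 0.12 did not pass the test (edgeR adjusted p = 0.187). The other 5 members overlapped between the groups, with log2 differences of -0.24 to 0.16.

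The 2 h samples of CM + Rux differed from the 4 h samples in *Clec7a* and *Clec4a3*, so 2 members were called higher (12.6% of all genes) and 0 lower (10.7%; 23.3% in either direction). At an unadjusted p-value under 0.05, edgeR had 3 members higher and 1 lower, and DESeq2 called 0 lower. Of all 12372 tested genes, edgeR had 1712 higher and 1498 lower in this way, and DESeq2 called 1583 higher and 1364 lower. *Clec7a* was at 411 and 418 CPM at 2 h, above all 4 h samples (log2 0.83 ± 0.15, edgeR adjusted p = 0.000829). *Clec4a3* was at 51.4 and 42.8 CPM, between the DMEM and the 4 h samples (log2 0.78 ± 0.17, edgeR adjusted p = 0.00261). *Clec12a* had a log2 difference of 0.40 ± 0.13 (edgeR adjusted p = 0.0234), under the fold threshold. *Clec4e*, at 2847 and 2928 CPM, lay below the 4 h samples and above those of DMEM. *Clec4n*, at 94.2 and 87.5 CPM in the 2 h samples, was close to its DMEM level. The CM samples without ruxolitinib carry no time in their labels, so an effect of the inhibitor at 2 h was not tested.

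Across all 6 groups, the order of the mean levels differed between the genes. For *Clec4e* it ran from CM + Rux at 3950 ± 186 CPM over 2 h (2888 ± 57.1), CM + Rux + IKK-16 (2663 ± 37.7), CM (2655 ± 140.5) and DMEM (334 ± 211) to DMEM + Rux (196 ± 7.65). The samples of CM and CM + Rux + IKK-16 overlapped, as did those of both DMEM groups, and the other neighbours in the order did not. For *Clec4n*, CM (285 ± 46.8) stood above CM + Rux + IKK-16 (132) without overlap, and all later neighbours down to 2 h (90.9) overlapped. For *Clec4a3*, DMEM (77.2) and DMEM + Rux (71.1) overlapped, 2 h (47.1) stood between them and CM (32.8), and CM, CM + Rux (27.4) and CM + Rux + IKK-16 (26.4) overlapped with their neighbours. *Clec4a1* and *Clec4a2* had overlapping neighbours at every step, as had *Clec7a*. In *Clec4a1* and *Clec4a2*, replicate 2 was the highest sample of each of the 6 groups.

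The tested genes with the most similar profile over the 6 group means were named by the root mean square of the log2 differences after centring. For *Clec4e* these were *Jag1* (0.204) and *Nlrp3* (0.257), at a profile range of 4.33. For *Clec4d* they were *Psmb6* (0.0364) and *Epb41l2* (0.0577), and for *Clec4n* *Gm16096* (0.114) and *Slc4a11* (0.132). *Clec7a* was nearest to *Prss36* (0.101), *Clec5a* to *Fgd3* (0.108) and *Myof* (0.119), and *Clec4a3* to *2310015A10Rik* (0.0689) and *Evi2a* (0.101). *Clec4a1* was nearest to *B3gnt9* and *Gm49331* (both 0.0448), *Clec4a2* to *Sntb2* (0.0529) and *Zfp236* (0.0536), and *Clec12a* to *Rn7sk* (0.0505) and *Ndnf* (0.059). No member had another member among its 2 nearest genes.

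The receptors signal through adaptors and kinases, for which a list of 26 genes was used, all tested. In CM against DMEM, 10 of the 26 were called higher and 5 lower, against 20.9% and 24.1% of all tested genes. The median log2 fold change was 0.22 against -0.005 for all genes. *Fcer1g*, the adaptor of *Clec4e*, *Clec4d* and *Clec4n*, went from 400 ± 10.3 to 574 ± 43.0 CPM (log2 0.52 ± 0.09, edgeR adjusted p = 0.000154). *Syk* went from 616.5 ± 84.0 to 1468 ± 32.5 CPM (log2 1.25 ± 0.09, edgeR adjusted p = 9.02e-08). The largest increases were those of the kinase *Src* (4.07), *Malt1* (3.20), which forms a complex with Card9 and Bcl10, and the NF-κB subunit *Nfkb1* (2.36). The largest decreases were those of the transcription factors *Nfatc2* (-1.61) and *Egr3* (-1.29) and of the ubiquitin ligase *Cblb* (-1.08), which acts on Syk. *Tyrobp* (-0.11, 95% interval -0.31 to 0.09), *Hcst* (-0.14, -0.50 to 0.22) and *Card9* (0.02, -0.21 to 0.25) were not called. *Hcst*, at 6.31 to 7.98 CPM in group means, was low throughout.

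In CM + Rux against CM, 0 of the 26 were called (3.33% of all tested genes), 9 had an unadjusted p-value under 0.05 in edgeR, and DESeq2 called 0. *Rel* (0.49, edgeR adjusted p = 0.0289) and *Traf6* (-0.45, edgeR adjusted p = 0.00145) were under the fold threshold. With IKK-16, 3 were called lower and 0 higher (3.66% and 4.07% of all genes): *Src* (-0.80), *Malt1* (-0.71) and *Rel* (-0.52). DESeq2 called 3 lower and 0 higher as well, and at an unadjusted p-value under 0.05 edgeR had 2 higher and 8 lower. *Malt1* was at 634 ± 35.9 CPM in CM + Rux and at 386 ± 51.0 with IKK-16, while *Syk* (-0.14) and *Fcer1g* (-0.18) were not called. In DMEM + Rux against DMEM, 0 were called (0.97% of all genes), with 3 at an unadjusted p-value under 0.05 and 0 by DESeq2. The unadjusted and DESeq2 counts over all tested genes are those given above for each comparison. In CM + Rux against DMEM + Rux, 9 were called higher (22.3% of all genes), led by *Src* (4.83), *Malt1* (3.22) and *Nfkb1* (2.81), and 5 lower (25%), led by *Egr3* (-2.58), *Nfatc2* (-1.52) and *Cblb* (-1.02). In 2 h against 4 h, 5 were higher (12.6% of all genes), led by *Egr3* (4.87), *Nfatc2* (2.28) and *Egr2* (1.33), and 2 lower (10.7%), *Ikbkg* (-0.65) and *Vav2* (-0.54).

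**Figure D4:**
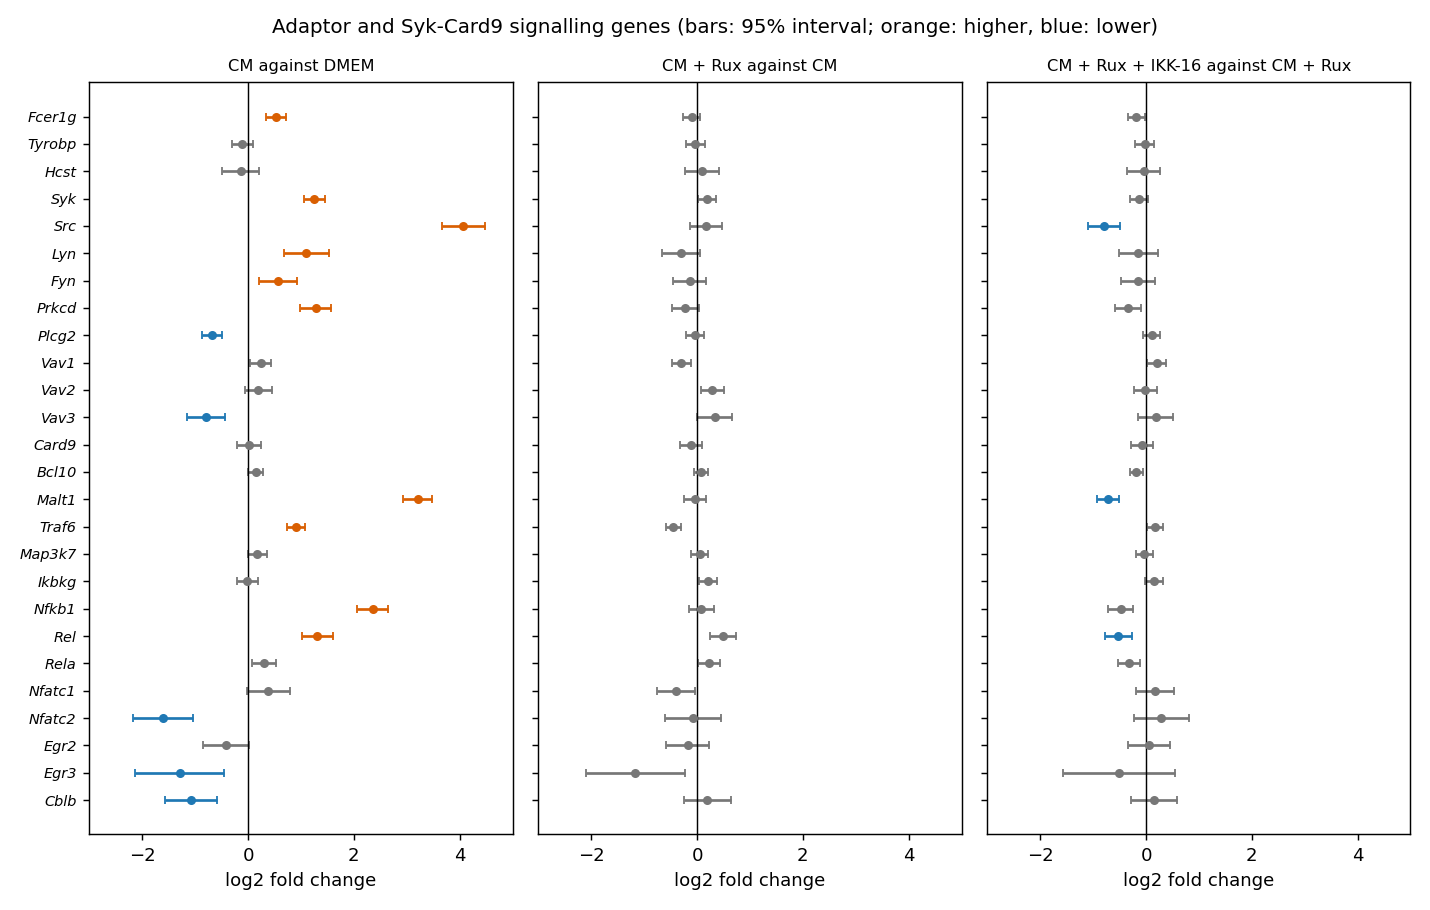
Log2 fold changes of the 26 adaptor and Syk-Card9 signalling genes in 3 comparisons, with bars for the 95% interval and orange or blue for genes called higher or lower. In CM against DMEM 15 genes are coloured, in CM + Rux against CM 0, and with IKK-16 *Src*, *Malt1* and *Rel* are blue.

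The inhibitory receptors act through phosphatases, of which 4 were listed and tested. In CM against DMEM, 1 of the 4 was called higher, *Ptpn11* (0.64), and 1 lower, *Inppl1* (-0.74), against 20.9% and 24.1% of all tested genes. With IKK-16, where 4.07% of all genes were called higher, *Inpp5d* was higher (0.98, edgeR adjusted p = 0.0263). In CM + Rux against DMEM + Rux, *Ptpn11* was higher (0.83; 22.3% of all genes), and *Inpp5d* (-1.32) and *Inppl1* (-0.64) were lower (25% of all genes). In the other comparisons of groups, edgeR called 0 of the 4. At an unadjusted p-value under 0.05, edgeR had 1 in CM + Rux against CM, 0 in DMEM + Rux against DMEM and 1 in 2 h against 4 h, and DESeq2 called 1, 0 and 0. The matching counts over all tested genes are given above with the receptors.

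A further list held 48 other C-type lectin receptors, of which 20 were tested. In CM against DMEM 8 of the 20 were called higher and 6 lower, against 20.9% and 24.1% of all tested genes. Some genes passed the filter only through groups where they were high. *Selp* (3.37 CPM in CM, at most 0.263 in the other group means) passed through CM alone. *Sele* had a group mean above 1 CPM only in the 2 h samples (3.76). *Cd207* (0.135 CPM in DMEM, 0.187 in DMEM + Rux) and *Olr1* (0.395 and 0.278) passed through groups with CM. *Clec1a* and *Clec4a4*, at 0.147 and 0.465 CPM in CM, passed through groups without CM. The direction of these calls was largely set by the filter, so they give no support to these counts. *Olr1*, the receptor for oxidized LDL, went from 0.395 ± 0.153 to 119.8 ± 15.4 CPM (log2 8.18 ± 0.38, edgeR adjusted p = 1.95e-09). The selectin *Sele* had 0 counts in DMEM and 0.730 CPM in CM, at least 5.94-fold higher against a floor of 3 counts per sample, and *Selp* was at 3.37 CPM in CM with at most 1 count in a DMEM sample. The largest decreases were *Clec4b1* (-2.28), *Clec1a* (-2.17, from 0.789 CPM) and the scavenger receptor *Colec12* (-1.31, from 608 to 246 CPM). With ruxolitinib in CM, *Olr1* was higher again (0.75, edgeR adjusted p = 0.0398), to 202 ± 34.0 CPM. *Selp* (-3.69) and the mannose receptor *Mrc1* (-1.36, edgeR adjusted p = 0.0111) were lower, so 1 of the 20 was higher and 2 were lower (1.2% and 2.13% of all genes). Since *Selp* passed the filter through CM alone, the direction of its call was largely set by the filter and gives no support to this count. IKK-16 brought 1 higher call (4.07% of all genes), *Cd207* (1.59, from 1.38 to 4.34 CPM), and 3 lower (3.66%), *Selp* (0.263 to 0.0285 CPM), the activation marker *Cd69* (-1.27) and *Olr1* (-0.85, to 112 ± 26.1 CPM). Here *Selp* was below 1 CPM in both groups. In DMEM + Rux against DMEM, 0 of the 20 were called (0.97% of all genes), with 2 at an unadjusted p-value under 0.05 and 0 by DESeq2 (counts over all tested genes are given above). In CM + Rux against DMEM + Rux, 8 were called higher (22.3% of all genes) and 5 lower (25%). *Olr1* had the largest increase (9.44), and *Sele* (at least 4.42-fold) and *Selp* (at least 1.89-fold), both selectins with 0 counts in DMEM + Rux, were among the others. *Olr1*, *Sele*, *Selp* and *Cd207*, also called, passed the filter only through groups with CM, so they give no support to the 8 higher calls. The lower ones included *Clec1a* (0.876 CPM in DMEM + Rux, at most 1 count in a CM + Rux sample), *Clec4b1* (-2.37) and *Clec10a* (-1.42). *Clec1a* passed through groups without CM and gives no support to the 5 lower calls. In 2 h against 4 h, 7 were higher (12.6% of all genes), among them *Clec1a* (0.870 CPM at 2 h, at most 1 count in a 4 h sample), *Sele* (2.54, from 0.612 CPM at 4 h to 3.76 at 2 h) and *Clec10a* (1.95), and 2 lower (10.7%), *Ly75* (-1.83) and *Klra2* (-0.85). *Sele* passed the filter through the 2 h samples, so the direction of its call was largely set by the filter. It gives no support to the count of 7.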

How the data were processed

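RNA-sequencing of 16 BMDM samples was analysed, with groups and replicate numbers from the sample titles. The deposited values are raw counts per gene. Per the labels and the study's methods, the authors trimmed reads with Trimmomatic 0.33, aligned them to GRCm38 with HISAT2 2.1.0 and counted fragments on the reverse strand with featureCounts 1.6.2, so reads of several genes or alignments are lost. Symbols were found for 55141 of 55487 Ensembl identifiers, and identifiers without one took up to 0.0459% of a sample's counts. The 12372 genes with over 1 CPM in 2 or more samples were RLE-scaled. edgeR 4.0.16 (quasi-likelihood, with limma 3.58.1, R 4.3.3) fitted 1 model to all samples in 6 groups, and 7 comparisons were made. Replicate pairs differed by 15.1 to 58.5 in chi-square per degree of freedom, so no sample was a copy of another.

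Replicate numbers pair the samples: deviations of same-numbered samples correlated at 0.621 to 0.735 (CM + Rux + IKK-16 and CM + Rux), 0.574 to 0.756 (CM + Rux and CM) and 0.159 to 0.39 (CM + Rux and DMEM + Rux) over 3 pairs each. The pairing comes from this check and not from the labels. Alternatives were TMM normalization, total counts alone, no filter, the replicate block, no fold threshold, only the groups compared, DESeq2 1.42.0 and each sample left out. Data simulated for CM against DMEM on 12036 genes gave back 91% of genes changed by a log2 of 1 and 100% of those changed by 2, with 7 false calls. The simulation changed only 100 genes at each size, evenly up and down, and drew samples independently. In the data 45% of genes were called and replicate numbers pair the samples, so these rates need not hold there. Named are all members, *Fcer1g*, *Tyrobp*, *Hcst*, *Syk* and *Card9*, up to 3 called genes of each list with the largest change in each direction, and the 2 nearest profiles of each member. For *Clec7a*, 1 of these is not reported here. *Clec4a4*, and *Rel* and *Traf6* in CM + Rux against CM, were named after their values were seen. The members and lists were chosen with earlier results of these data known. Figures were drawn with matplotlib 3.10.9 in Python 3.11.15.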

Additional observations from a re-analysis of the deposited data

How the results depend on the processing

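For the 9 receptors, 63 values (9 genes in 7 comparisons) were recomputed under each alternative. Direction and call were kept in 61 with TMM normalization, 60 without the fold threshold, 59 with only the groups compared, 58 with DESeq2, 56 with the replicate block, 54 without the filter and 50 with total counts alone. Of 396 values with a sample left out, 349 kept both. The cause of the changes was not tested. With total counts alone, 5 members were called lower in CM against DMEM and 4 in CM + Rux against DMEM + Rux, 1 was called higher in CM + Rux against CM, and the interaction called 1 lower and 90 genes. This scaling turned *Clec7a* in CM against DMEM (-0.17), *Clec4d* (0.0405), *Clec4a2* (0.0626) and *Clec4a3* (0.0341) with IKK-16, *Clec5a* in CM + Rux against DMEM + Rux (-0.0848) and *Clec4a1* in 2 h against 4 h (-0.0435). TMM normalization called 1 member lower in the interaction and turned *Clec5a* in 2 h against 4 h (0.00512). Without the filter, 3 members were lower in CM against DMEM (*Clec4a2* in addition), CM + Rux against CM had 2 members higher and 685 genes called, IKK-16 and DMEM + Rux against DMEM each had 1 lower (*Clec4e*), and the interaction had 2 higher, 2 lower and 349 genes. The replicate block gave 1 member higher and 745 genes in CM + Rux against CM and 2 higher, 2 lower and 444 genes in the interaction, turned *Clec4n* in DMEM + Rux against DMEM (-0.0333) and *Clec4a1* in 2 h against 4 h (-0.0997), and changed no other call of a member. Without the fold threshold, 1778 genes were called with IKK-16 against 957, and 4726 in 2 h against 4 h against 2883. With only the groups compared, 1 member was called higher in CM + Rux against CM and 1 lower with IKK-16, both *Clec4e*, and *Clec4n* in DMEM + Rux against DMEM (-0.00353) and *Clec5a* in 2 h against 4 h (0.0149) turned. DESeq2 called 1 member higher in CM + Rux against CM, and 2 higher, 2 lower and 234 genes in the interaction.

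With each sample left out, members called lower were 1 to 2 in CM against DMEM, in CM + Rux against CM and in CM + Rux against DMEM + Rux, 0 to 1 in DMEM + Rux against DMEM, in 2 h against 4 h and in the interaction. Members called higher were 0 to 1 in CM + Rux against CM and 0 to 2 in the interaction. Calls were gained without CM replicate 3 (*Clec5a* in CM + Rux against CM, 0.71), without DMEM replicate 2 (DMEM + Rux against DMEM and the interaction), and without CM + Rux replicate 1 (2 h against 4 h) or 2 (interaction). Genes called were 243 (without CM + Rux replicate 1) to 486 in CM + Rux against CM, with 258 without CM replicate 2, and 17 to 114 in the interaction. Small differences changed sign: in CM + Rux against CM *Clec4a1* (-0.10 to 0.20) and *Clec4a2* (-0.35 to 0.0649), with IKK-16 *Clec4n* (-0.000513 to 0.33), *Clec4a2* (-0.20 to 0.20) and *Clec4a3* (-0.10 to 0.0334), in CM + Rux against DMEM + Rux *Clec4a1* (-0.23 to 0.18), in DMEM + Rux against DMEM *Clec4e* (-1.3 to 0.0773), *Clec4d* (-0.27 to 0.0907), *Clec4n* (-0.0934 to 0.0629), *Clec4a2* (-0.52 to 0.11), *Clec4a3* (-0.30 to 0.10) and *Clec12a* (-0.17 to 0.0796), in 2 h against 4 h *Clec5a* (-0.10 to 0.11), *Clec4a1* (-0.23 to 0.23) and *Clec4a2* (-0.57 to 0.29), and in the interaction *Clec4a2* (-0.23 to 0.40), *Clec4a3* (-0.36 to 0.0409) and *Clec12a* (-0.19 to 0.0586). The 2 DMEM samples and the 2 samples of 2 h limit the comparisons that use them, since leaving out 1 leaves a group whose spread is taken from the other groups.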
